A study of Mus musculus with 12 samples.

Results

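Disease-associated microglia genes are a set of 10 mouse genes, *Apoe*, *Trem2*, *Tyrobp*, *Cst7*, *Lpl*, *Itgax*, *Axl*, *Spp1*, *Gpnmb*, and *Lgals3*, taken by exact symbol from a table of 54833 genes. All 10 were found, and all 10 were among the 21495 genes tested. They were measured by RNA sequencing of the caudate putamen around the hematoma (or the same place in sham animals) 24 h after surgery in wild-type male C57BL/6 mice. Collagenase was injected to produce intracerebral hemorrhage (ICH). Young mice were 8 to 10 weeks of age, and the aged ones 20 to 22 months. Each age gave 3 samples after sham surgery and 3 after ICH, which makes 4 groups and 12 samples in all. Each sample pooled the tissue of 2 to 3 mice, so that a single animal cannot be followed.

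Microglia are the resident macrophages of the brain. In models of neurodegeneration they leave a homeostatic state, marked by genes such as *P2ry12* and *Tmem119*, and take on a state in which genes of phagocytosis and lipid handling are raised. TREM2 is a surface receptor for lipids and lipoproteins, and TYROBP (DAP12) is the adaptor that carries its signal to the kinase SYK. Several of the 10 genes are not particular to microglia: *Apoe* is abundant in astrocytes, *Lpl* is made by neurons as well, and *Spp1*, *Gpnmb*, *Lgals3*, and *Itgax* are also expressed by macrophages and monocytes that enter from the blood. In bulk tissue, a change in the number of cells of a type and a change in RNA per cell cannot be told apart.

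Total counts lay between 28410896 and 37785160 per sample. 3 libraries stood apart in tissue composition. The summed level of 6 choroid plexus markers, in CPM (read counts scaled to the size of the library), was 4060 in young ICH sample 3, 1550 in aged ICH sample 1, and 1973 in aged ICH sample 2, against 9.79 to 486 in the other libraries. Striatal neuron markers were lowest in aged ICH sample 1, with a summed 264 CPM. The counts of members and of listed genes that passed after ICH are therefore also given for young mice without those 3 libraries. In aged mice this leaves a single ICH library, so effect sizes are given there. The homeostatic markers of microglia were present in every sample, with a summed level of 491 to 596 CPM over 12 genes.

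The starts of 8 of the 10 genes were found among the RefSeq promoter windows of build GRCm38.p6, each running from 250 bases before to 50 bases after a start site. The motifs searched on both strands were TGANTCA, the AP-1 site, which reads alike on both strands, GAGGAAGT, a PU.1 site, and the E-boxes CACGTG and CATGTG. The AP-1 letters stood in a window of 4 of the 8 genes, *Cst7*, *Gpnmb*, *Itgax*, and *Trem2*, and in 7.81% of all 32851 windows. The 8 genes had 11 windows, so counts of genes and shares of windows are in different units. The PU.1 letters stood in 1 of the 8 genes, *Spp1*, and in 3.20% of all windows. Neither E-box was found in a window of the 8 genes, while CACGTG stood in 7.15% and CATGTG in 14.2% of all windows. The 5 windows with a motif are shown. Of their genes 4 rose after ICH in young mice, while *Trem2* did not pass the test. *Lgals3* and *Axl* also rose and *Apoe* did not pass, and the windows of these genes held none of the motifs. Each run holds 150 bases before and 25 bases from the start site on, 5′ to 3′ on the gene's strand, with the motif in capitals. They lie on the plus strand at chr2:150570265-150570439 (*Cst7*), chr6:49036368-49036542 (*Gpnmb*), chr7:128129400-128129574 (*Itgax*), chr17:48346251-48346425 (*Trem2*), and chr5:104434961-104435135 (*Spp1*).
Cst7: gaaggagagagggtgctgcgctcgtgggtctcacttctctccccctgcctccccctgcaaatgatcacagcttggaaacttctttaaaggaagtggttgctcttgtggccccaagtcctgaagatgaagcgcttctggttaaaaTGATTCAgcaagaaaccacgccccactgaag
Gpnmb: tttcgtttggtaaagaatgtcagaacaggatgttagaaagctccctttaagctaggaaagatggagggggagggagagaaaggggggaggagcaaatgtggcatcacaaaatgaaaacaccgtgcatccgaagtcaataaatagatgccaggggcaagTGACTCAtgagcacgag
Itgax: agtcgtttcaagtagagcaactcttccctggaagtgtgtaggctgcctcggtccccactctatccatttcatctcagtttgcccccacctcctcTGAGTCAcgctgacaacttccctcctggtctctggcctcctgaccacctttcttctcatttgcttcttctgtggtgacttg
Trem2: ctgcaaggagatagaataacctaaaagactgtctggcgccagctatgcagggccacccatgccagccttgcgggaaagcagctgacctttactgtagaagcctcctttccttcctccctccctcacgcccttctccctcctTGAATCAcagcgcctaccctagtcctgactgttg
Spp1: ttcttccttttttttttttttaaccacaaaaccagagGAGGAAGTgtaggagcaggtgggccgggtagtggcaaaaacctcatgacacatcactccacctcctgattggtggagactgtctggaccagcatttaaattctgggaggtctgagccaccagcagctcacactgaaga
Counted from the RefSeq start site, the motif began at position -6 in *Cst7*, 9 in *Gpnmb*, -56 in *Itgax*, -9 in *Trem2*, and -113 in *Spp1*. GENCODE places some starts elsewhere. Its *Gpnmb* gene starts at chr6:49036546, after the end of the printed run, so the motif lies before that start. Its *Spp1* gene also starts after the RefSeq start, at chr5:104435118. A match of letters describes the sequence and shows no binding.

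To learn how the genes responded to hemorrhage at each age, ICH was compared with sham in young and in aged mice. 7 of the 10 genes rose in young ICH (*Lgals3*, *Spp1*, *Gpnmb*, *Itgax*, *Cst7*, *Tyrobp*, and *Axl*) and 5 rose in aged ICH (*Lgals3*, *Spp1*, *Cst7*, *Tyrobp*, and *Axl*), and none fell. A gene was taken to rise or fall when its Benjamini-Hochberg adjusted *P*-value from edgeR's quasi-likelihood test was under 0.05. Of all genes tested, 9.89% rose in young ICH and 7% in aged ICH. Of the same 21495 genes, 1985 fell in young ICH and 1323 in aged ICH. By the study's own criteria for differentially expressed genes (DEGs), a fold change above 1.5 with an unadjusted *P*-value under 0.05, 6 members were higher in young ICH, against 8.66% of all genes, and 5 in aged ICH, against 7.24%. The median log2 fold change of the 10 genes was 1.04 in young and 0.60 in aged mice, while that of all genes was 0.02 and 0.00. All 3 ICH samples exceeded all 3 sham samples for 7 members in young mice, where 18.5% of all genes did so, and for 6 in aged mice, where 17.8% did.

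**Figure D1:**
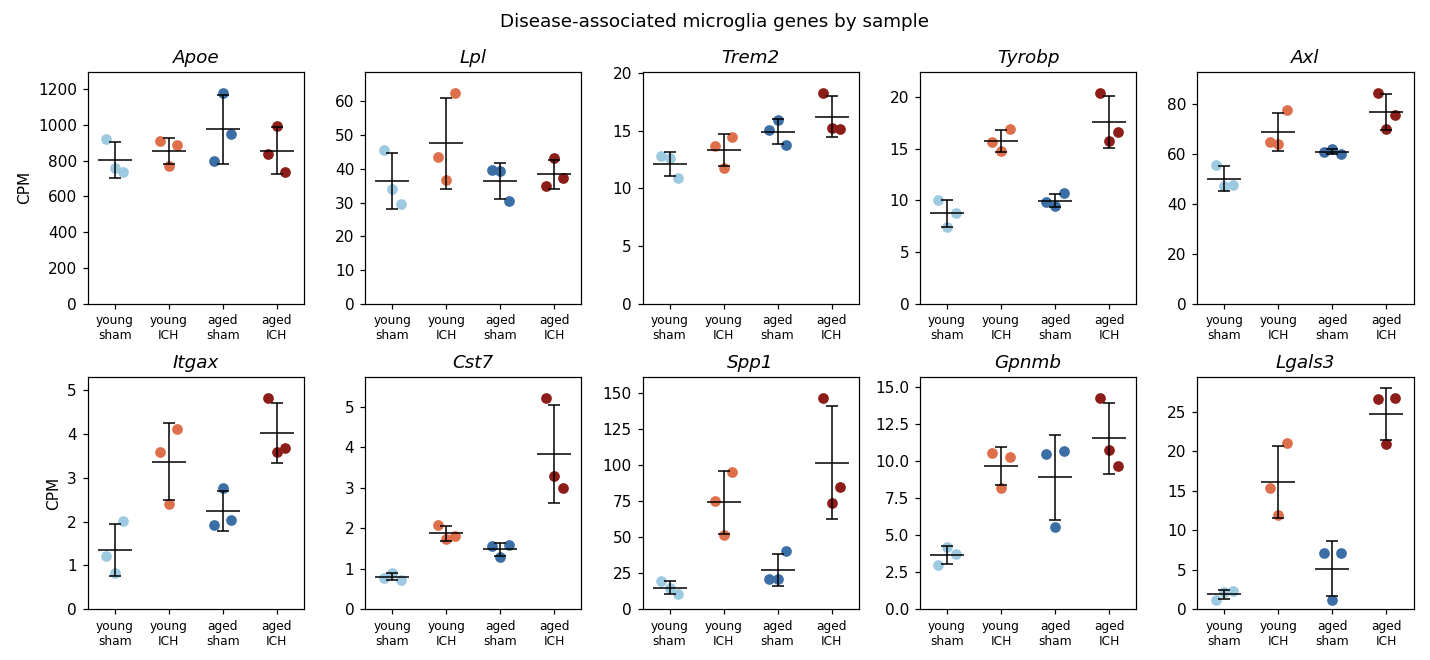
Level of each of the 10 genes in CPM (y axis, linear, from 0) in the 12 samples by group (x axis); points are samples, the long line is the mean and the bars are 1 SD of 3 samples. *Lgals3*, *Spp1*, *Cst7*, *Tyrobp*, and *Axl* lie higher in every ICH sample than in every sham sample of the same age, while *Apoe*, *Lpl*, and *Trem2* overlap between sham and ICH.

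The secreted and lysosomal products come first, and *Lgals3* and *Spp1* had the largest folds of the 10 genes at both ages. *Lgals3* (GRCm38 chr14:47367751-47386160, plus strand, protein coding) encodes galectin-3, a lectin that binds sugars on damaged membranes and cell surfaces. Its level was 1.19, 2.13, and 2.31 CPM in the young sham samples and 15.4, 11.9, and 21.0 CPM in the young ICH samples. It was 7.12, 1.15, and 7.10 CPM in aged sham and 26.6, 20.9, and 26.7 CPM in aged ICH. Sham and ICH did not overlap at either age, and aged sham sample 2 was as low as the young sham samples. *Lgals3* rose by 3.11 on the log2 scale (SE 0.52, 8.63-fold, adjusted *P* = 0.00323) in young mice and by 2.27 (SE 0.48, 4.81-fold, adjusted *P* = 0.0129) in aged mice.

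*Spp1* (GRCm38 chr5:104435118-104441050, plus strand) encodes osteopontin, a secreted ligand of integrins and CD44. It overlaps *Gm42793*, a model on the same strand, and reads of the pair may be shared. Its levels were 19.5, 14.6, and 10.8 CPM in young sham, 75.4, 51.5, and 95.4 CPM in young ICH, 20.7, 21.1, and 40.2 CPM in aged sham, and 146, 73.6, and 84.5 CPM in aged ICH. Every ICH sample stood above every sham sample of either age, with the highest value in aged ICH sample 1. The rise was 2.30 on the log2 scale (SE 0.36, 4.94-fold, adjusted *P* = 0.00237) in young and 1.89 (SE 0.35, 3.71-fold, adjusted *P* = 0.00801) in aged mice.

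*Gpnmb* (GRCm38 chr6:49036546-49070929, plus strand) encodes a transmembrane glycoprotein of lysosomes and phagosomes. Its levels were 2.96, 4.16, and 3.73 CPM in young sham and 10.5, 8.15, and 10.2 CPM in young ICH, with no overlap. They were 10.4, 5.56, and 10.6 CPM in aged sham and 14.2, 10.7, and 9.65 CPM in aged ICH, where the groups overlapped. *Gpnmb* rose by 1.42 (log2, SE 0.25, 2.67-fold, adjusted *P* = 0.00380) in young mice. In aged mice the difference was 0.38 (SE 0.24, adjusted *P* = 0.325).

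*Cst7* (GRCm38 chr2:150570415-150578944, plus strand) encodes cystatin F, an inhibitor of lysosomal cathepsins. Its levels were 0.774, 0.888, and 0.726 CPM in young sham, 2.09, 1.73, and 1.80 CPM in young ICH, 1.56, 1.28, and 1.59 CPM in aged sham, and 5.21, 3.28, and 2.99 CPM in aged ICH. No pair of these groups overlapped. The young sham libraries held only 22 to 28 reads of *Cst7* each, so its fold changes rest on few reads. It rose by 1.23 (log2, SE 0.24, adjusted *P* = 0.00550) in young and by 1.38 (log2, SE 0.22, adjusted *P* = 0.00536) in aged mice.

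The surface receptors and the adaptor follow. *Itgax* (GRCm38 chr7:128129547-128150657, plus strand) encodes CD11c, the alpha chain of a β2 integrin. Its levels were 1.22, 0.825, and 2.01 CPM in young sham, 3.60, 2.40, and 4.13 CPM in young ICH, 1.92, 2.76, and 2.04 CPM in aged sham, and 4.82, 3.59, and 3.68 CPM in aged ICH. The ICH samples exceeded the sham samples of their age at both ages. The difference passed in young mice (log2 1.32, SE 0.31, adjusted *P* = 0.0131) and did not pass in aged mice (log2 0.85, SE 0.30, adjusted *P* = 0.0818). In aged mice it passed with DESeq2 (adjusted *P* = 0.0325), with limma on FPKM values, which are scaled to gene length as well (adjusted *P* = 0.0405), and when only the aged groups were fitted (adjusted *P* = 0.0371).

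*Tyrobp* (GRCm38 chr7:30413760-30417585, plus strand) encodes the adaptor of TREM2 and had the smallest *P* of the members at both ages. Its levels were 10.0, 7.39, and 8.81 CPM in young sham, 15.6, 14.7, and 16.9 CPM in young ICH, 9.80, 9.44, and 10.7 CPM in aged sham, and 20.4, 15.7, and 16.6 CPM in aged ICH. The lowest ICH sample was well above the highest sham sample. The rise was 0.85 (log2, SE 0.13, 1.80-fold, adjusted *P* = 0.00225) in young and 0.82 (log2, SE 0.13, 1.76-fold, adjusted *P* = 0.00526) in aged mice.

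*Axl* (GRCm38 chr7:25757273-25788705, minus strand) encodes a receptor tyrosine kinase that takes part in the uptake of dying cells. Its levels were 55.7, 47.0, and 47.5 CPM in young sham, 64.7, 64.1, and 77.8 CPM in young ICH, 60.6, 62.0, and 60.0 CPM in aged sham, and 84.4, 70.1, and 75.7 CPM in aged ICH. Its folds were the smallest of the members that passed, 1.37-fold in young (log2 0.46, SE 0.10, adjusted *P* = 0.00801) and 1.26-fold in aged mice (log2 0.34, SE 0.10, adjusted *P* = 0.0397), both under the 1.5-fold of the DEG criteria.

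*Trem2*, *Apoe*, and *Lpl* did not pass after ICH at either age. *Trem2* (GRCm38 chr17:48346401-48354147, plus strand) was at 12.8, 12.7, and 10.9 CPM in young sham, 13.7, 11.7, and 14.5 CPM in young ICH, 15.1, 15.9, and 13.8 CPM in aged sham, and 18.3, 15.2, and 15.2 CPM in aged ICH. Its log2 difference between ICH and sham was 0.13 (SE 0.11, adjusted *P* = 0.446) in young and 0.12 (SE 0.11, adjusted *P* = 0.514) in aged mice. The receptor and its adaptor thus gave unlike values in the same libraries.

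*Apoe* (GRCm38 chr7:19696109-19699188, minus strand) encodes the main lipid carrier protein of the brain. It was at 922, 758, and 737 CPM in young sham and 907, 773, and 885 CPM in young ICH. In aged sham it was at 796, 1178, and 951 CPM, and in aged ICH at 838, 995, and 736 CPM. All groups overlapped, with differences of 0.09 (SE 0.15) in young and -0.19 (SE 0.15) in aged mice on the log2 scale.

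*Lpl* (GRCm38 chr8:68880491-68907448, plus strand) encodes lipoprotein lipase, which frees fatty acids from lipoproteins. It was at 45.7, 33.9, and 29.5 CPM in young sham, 43.6, 36.5, and 62.5 CPM in young ICH, 39.7, 39.5, and 30.4 CPM in aged sham, and 34.9, 43.2, and 37.3 CPM in aged ICH. The highest value was in young ICH sample 3, the library with the most choroid plexus RNA. The log2 differences were 0.39 (SE 0.20, adjusted *P* = 0.207) in young and 0.08 (SE 0.20, adjusted *P* = 0.847) in aged mice.

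**Figure D2:**
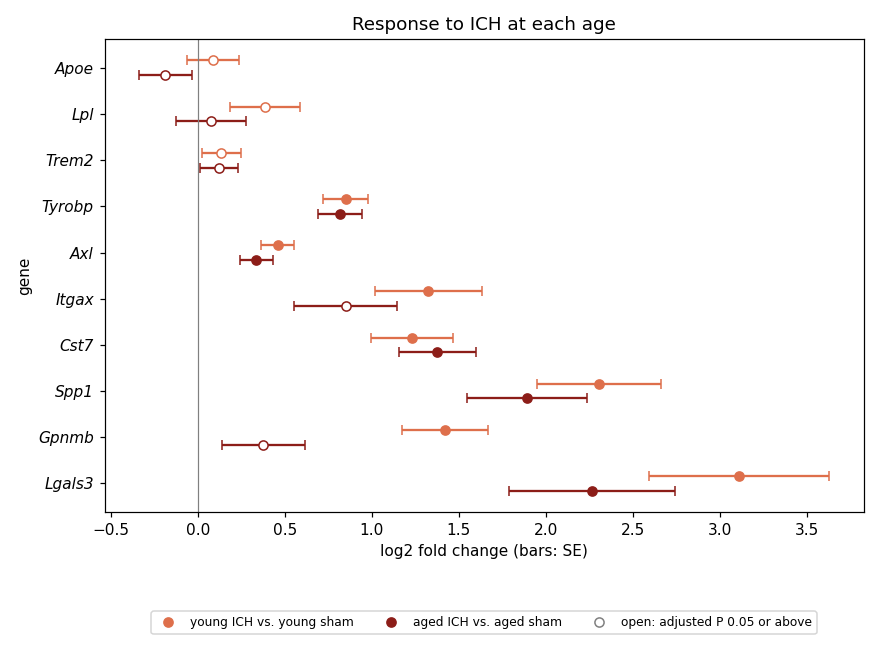
Log2 fold change of ICH against sham (x axis) for each gene (y axis) in young and aged mice; bars are the SE, and filled points have an adjusted *P* under 0.05. 7 points are filled in young and 5 in aged mice, and *Gpnmb* and *Itgax* are filled in young mice alone, although the difference between the ages did not pass for either gene.

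When the 3 libraries rich in choroid plexus RNA were left out, 6 of the 10 genes passed in young mice, with *Itgax* at 1.15 (adjusted *P* = 0.0705). Of all 22844 genes tested there, 2199 passed in young mice in either direction. In aged mice this left a single ICH library, whose spread was taken from the other groups, so only the size of the differences is given. The 5 genes that rose with all libraries kept their direction there, at 2.38 (*Lgals3*), 1.63 (*Spp1*), 1.02 (*Cst7*), 0.74 (*Tyrobp*), and 0.32 (*Axl*) on the log2 scale. Leaving out a single library ended few calls. *Lgals3* in aged mice did not pass without aged ICH sample 1 (log2 2.21, adjusted *P* = 0.0516), and *Itgax* in young mice did not pass without young sham sample 2 (log2 1.07, adjusted *P* = 0.0544). *Axl* in aged mice did not pass without aged ICH sample 1 or 3, without any one of the aged sham samples, or without young sham sample 3 (log2 0.26 to 0.35, adjusted *P* = 0.0516 to 0.169).

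Since *Tyrobp* rose and *Trem2* did not pass, the ratio of their FPKM was taken after these values were seen. It was 5.80, 4.33, and 5.98 in young sham and 8.47, 9.31, and 8.66 in young ICH. In aged mice it was 4.81, 4.41, and 5.75 in sham and 8.28, 7.68, and 8.11 in ICH. Sham and ICH did not overlap at either age. The ratio was chosen for this difference, so the separation is a description and no test of it is given. Aged ICH lay below young ICH without overlap (exact two-sided permutation *P* = 0.1, the smallest that 3 against 3 samples allow). The sham groups of the 2 ages overlapped (exact permutation *P* = 0.7).

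The other genes of each pathway were read from lists that were chosen with earlier results of these data known, so their counts are descriptive. Of 9 signaling partners of TREM2 and TYROBP, 6 rose in young ICH and 5 in aged ICH, with medians of 0.49 and 0.45 on the log2 scale. Those with the smallest *P* in young mice were *Syk*, the kinase recruited by TYROBP (log2 0.78, adjusted *P* = 0.00645), *Inpp5d*, the inositol phosphatase SHIP1 (0.49, adjusted *P* = 0.00769), *Plcg2*, a phospholipase C (0.59, adjusted *P* = 0.00981), and *Lat2*, an adaptor (0.72, adjusted *P* = 0.0274). *Adam10* and *Adam17*, proteases that shed TREM2, did not pass at either age.

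Of the 4 genes around Axl, 1 rose and 1 fell at each age. *Pros1*, a bridging ligand of these receptors, rose by 0.87 in young (adjusted *P* = 0.00380) and 0.77 in aged mice (adjusted *P* = 0.00999). *Tyro3*, a related receptor, fell by 0.66 (adjusted *P* = 0.00699) and by 0.52 (adjusted *P* = 0.0284), all on the log2 scale. The ligand *Gas6* and the receptor *Mertk* did not pass.

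Of the 10 genes of ApoE handling, 2 rose and 1 fell at each age. In young mice *Nr1h3*, the nuclear receptor LXRα, rose by 0.75 (adjusted *P* = 0.00632), *Clu*, another lipid carrier, rose by 0.46 (adjusted *P* = 0.0385), and *Abcg1*, a lipid exporter, fell by 0.29 (adjusted *P* = 0.0289) on the log2 scale. Of 6 partners of lipoprotein lipase, 4 were tested and 3 rose at each age although *Lpl* itself did not pass. They were *Plin2*, which coats lipid droplets (log2 2.07 in young and 1.56 in aged mice), *Angptl4*, an inhibitor of the lipase (2.72 and 2.04), and *Cd36*, a fatty acid receptor (1.58 and 1.97), with adjusted *P*-values of at most 0.00670.

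Of 7 receptors and integrin chains that pair with osteopontin or CD11c, 3 rose in young mice, and 4 rose and 1 fell in aged mice. *Cd44* rose by 2.52 in young and 2.02 in aged mice, *Itgb1* by 0.50 and 0.40, and *Itgb2*, the β2 chain that pairs with CD11c, by 0.87 and 0.88 on the log2 scale. Of 3 proteases linked to cystatin F, 2 rose at each age, and *Ctsc*, cathepsin C, rose by 1.18 (adjusted *P* = 0.0136) in young and by 1.33 (adjusted *P* = 0.0126) in aged mice.

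Of 20 further genes of the disease-associated state, 15 rose and 1 fell in young ICH and 13 rose and 1 fell in aged ICH, with medians of 0.65 and 0.68. The 4 with the smallest *P* in young mice were *Ccl6*, a chemokine (log2 2.49, adjusted *P* = 0.000582), *Cd68*, a lysosomal protein of phagocytes (0.92, adjusted *P* = 0.00140), *Ctsl*, cathepsin L (0.58, adjusted *P* = 0.00198), and *Lyz2*, lysozyme of myeloid cells (1.93, adjusted *P* = 0.00261). The gene that fell was *Ank*, a pyrophosphate transporter, by 0.23 in young (adjusted *P* = 0.0495) and 0.27 in aged mice (adjusted *P* = 0.0347).

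Of the 12 homeostatic genes, 0 rose and 2 fell in young ICH, and 1 rose and 2 fell in aged ICH, with medians of -0.05 and 0.00. Of all 21495 genes tested, 1985 fell in young ICH and 1323 in aged ICH. *P2ry12*, a purine receptor of resting microglia, fell by 0.70 (adjusted *P* = 0.00592) in young and by 0.85 (adjusted *P* = 0.00536) in aged mice, and *Siglech*, a sialic acid lectin, by 0.80 (adjusted *P* = 0.0159) and 1.11 (adjusted *P* = 0.00727). *Fcrls* rose by 0.65 in aged mice (adjusted *P* = 0.0233). *Tmem119* and *Cx3cr1* did not pass at either age. The summed level of the list was 491 to 588 CPM in young sham, 508 to 596 CPM in young ICH, 515 to 552 CPM in aged sham, and 514 to 586 CPM in aged ICH, overlapping throughout.

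**Figure D3:**
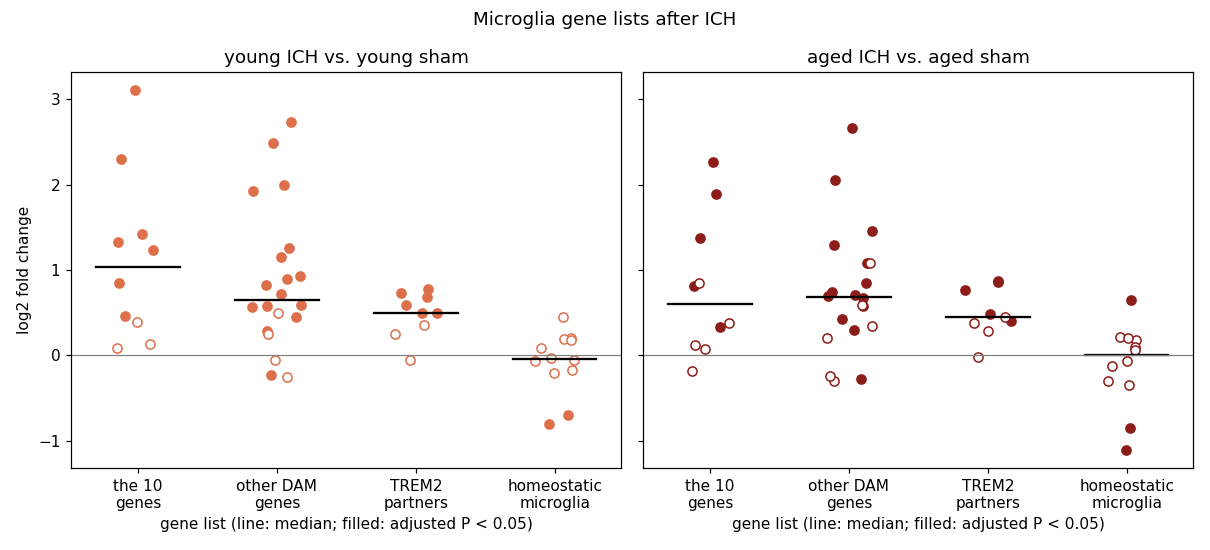
Log2 fold change (y axis) of each tested gene of the 10 members, 20 further disease-associated microglia (DAM) genes, 9 TREM2 partners, and 12 homeostatic genes (x axis) in ICH against sham, young at left and aged at right; lines are medians and filled points have an adjusted *P* under 0.05. The medians are 1.04, 0.65, 0.49, and -0.05 in young and 0.60, 0.68, 0.45, and 0.00 in aged mice.

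Markers of other cell types moved as well, among them those of blood-borne and border phagocytes. Of 8 monocyte markers, 4 rose at each age, led in young mice by *Chil3* (log2 3.58). The summed level of the 8 was 136 to 151 CPM in young sham, 256 to 305 CPM in young ICH, 109 to 187 CPM in aged sham, and 251 to 316 CPM in aged ICH. Most of this sum was *Fn1*, at 98.7 to 114, 205 to 241, 79.7 to 143, and 181 to 253 CPM in the same order. *Chil3* was at 0.276 to 0.660 CPM in young sham and 4.07 to 8.02 CPM in young ICH. Of 6 markers of border macrophages, 4 rose in young and 3 in aged mice, with summed levels of 9.34 to 21.0, 35.3 to 41.4, 13.6 to 20.7, and 32.8 to 39.7 CPM in the same order. Of 8 neutrophil markers, 7 were tested, and 5 rose in young and 4 in aged mice, with summed levels of 0.940 to 1.97, 7.11 to 17.3, 2.85 to 11.2, and 19.5 to 30.2 CPM. No monocyte or border macrophage marker was at 0 in any sample, and the neutrophil markers *Camp*, *Ltf*, and *Retnlg* were at 0 in some young sham samples alone. Of 6 endothelial markers 4 rose in young and 3 in aged mice, and their summed level was 241 to 288 CPM in young sham, 321 to 338 CPM in young ICH, 267 to 305 CPM in aged sham, and 306 to 364 CPM in aged ICH. Of 6 astrocyte markers 3 rose in young mice, and 2 rose and 1 fell in aged mice. Of 6 oligodendrocyte markers 3 fell in aged mice, and of 5 red blood cell genes 3 rose in young mice. Of 6 dendritic cell markers 5 were tested and 0 passed at either age, with medians of 0.62 in young and 0.55 in aged mice. Of 6 NK and T cell markers 4 were tested, and 2 rose in young and 0 in aged mice, with medians of 2.08 and 0.90. The NK and T cell markers summed to 0.349 to 1.68 CPM in young sham and 1.56 to 9.37 CPM in young ICH. The 7 striatal neuron markers had medians of -0.95 in young and -1.26 in aged mice on the log2 scale with 0 passing, and their summed level was 1498 to 2518 CPM in young sham, 464 to 1418 CPM in young ICH, 1261 to 2126 CPM in aged sham, and 264 to 1538 CPM in aged ICH. The part of these cells in the change of *Spp1*, *Lgals3*, *Gpnmb*, *Itgax*, *Cst7*, *Tyrobp*, and *Axl* was not tested.

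**Figure D4:**
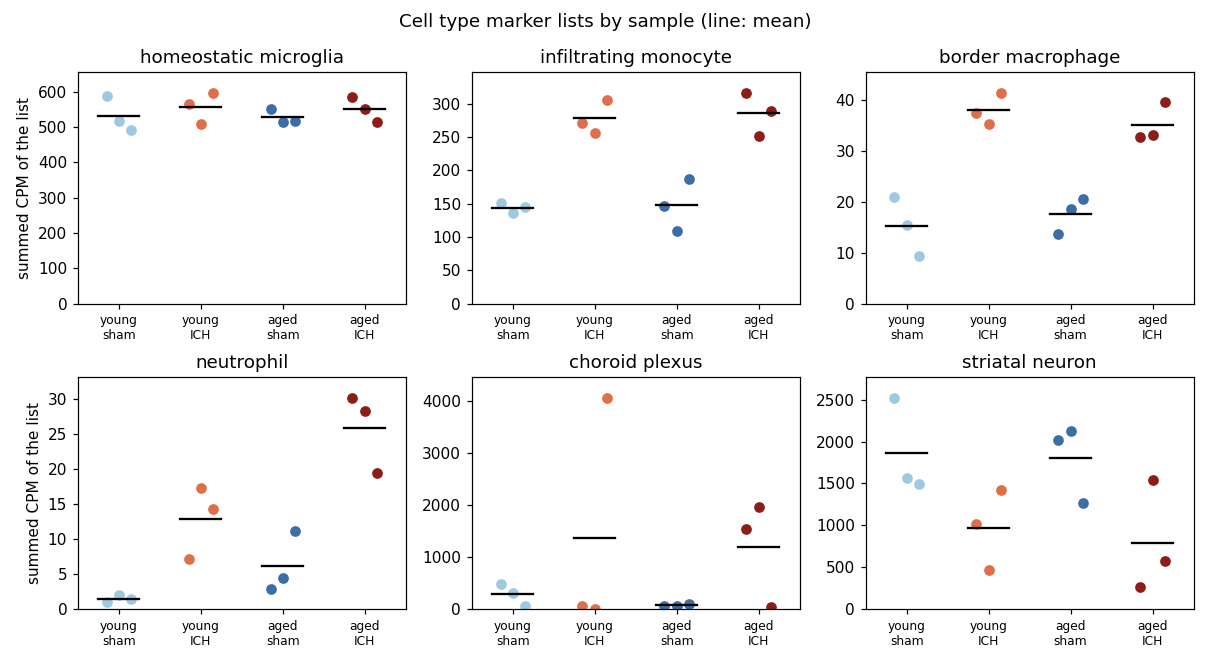
Summed CPM (y axes, linear, from 0, each panel on its own scale) of 6 cell type marker lists in each of the 12 samples by group (x axis); lines are group means of 3 samples. The homeostatic list overlaps between all groups, the monocyte, border macrophage, and neutrophil lists are higher in ICH than in sham of the same age, and the choroid plexus list is high in 3 ICH libraries, up to 4060 CPM. *Fn1* makes up most of the monocyte sum.

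Without the 3 libraries rich in choroid plexus RNA, 10 of the 20 further disease-associated genes rose in young mice and 4 in aged mice, where a single ICH library remained, with medians of 0.54 and 0.57. Of the TREM2 partners 2 rose in young and 0 in aged mice, with medians of 0.49 and 0.47, and of the lipase partners 3 and 2 rose. Of the osteopontin and CD11c partners 2 rose in young and 0 in aged mice, of the 10 genes of ApoE handling 1 rose and 1 fell at each age, and around Axl 1 rose and 1 fell in young mice and 0 passed in aged mice. Of the proteases linked to cystatin F 0 passed at either age, with 2 at an unadjusted *P* under 0.05 at each. Of the homeostatic genes 1 fell in young and 0 passed in aged mice. Of the monocyte markers 3 rose in young and 1 in aged mice, of the border macrophage markers 3 and 1, and of the neutrophil markers 5 and 0. In aged mice the unadjusted *P* was under 0.05 for 4 TREM2 partners, 5 osteopontin and CD11c partners, 2 genes around Axl, 4 homeostatic genes, and 4 neutrophil markers.

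The next question was how age alone changed the genes, and aged sham was compared with young sham. All 10 values were positive, but 0 of the 10 genes passed edgeR's test after adjustment, as did only 0.0884% of all genes in the upward direction. DESeq2 passed 1 member (*Gpnmb*), against 266 of the 39887 genes given to it, and limma on FPKM passed 0, against 16 of 21495. 7 members had an unadjusted *P* under 0.05. The share of all genes at that level was not taken, here or below, so such counts have no background to be read against. By the DEG criteria 5 were higher, *Gpnmb*, *Lgals3*, *Cst7*, *Spp1*, and *Itgax*, where 2.82% of all genes were. The median log2 difference of the 10 was 0.51, and that of all genes 0.01. For 5 members, *Gpnmb*, *Cst7*, *Spp1*, *Axl*, and *Trem2*, all 3 aged samples exceeded all 3 young samples, which held for 9.81% of all genes.

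*Gpnmb* had the smallest *P* of the 10 in this comparison, with a mean of 8.87 ± 2.87 CPM in aged sham and 3.61 ± 0.608 CPM in young sham (SD, *n* = 3; log2 1.30, SE 0.25, adjusted *P* = 0.103). It passed with DESeq2 (adjusted *P* = 0.000165), without a filter on low counts (adjusted *P* = 0.0110), and without aged sham sample 2 (log2 1.54, adjusted *P* = 0.0128). *Lgals3* was at 5.12 ± 3.44 CPM in aged and 1.87 ± 0.601 CPM in young sham (log2 1.46, SE 0.52, adjusted *P* = 0.297), and it passed without aged sham sample 2 (log2 1.93, adjusted *P* = 0.0335). *Cst7* differed by 0.89 (SE 0.24, adjusted *P* = 0.209), *Spp1* by 0.87 (SE 0.35, adjusted *P* = 0.343), and *Itgax* by 0.73 (SE 0.31, adjusted *P* = 0.375). The *Spp1* difference was 0.48 without aged sham sample 3, and the *Itgax* difference was 0.48 without young sham sample 2 and 1.12 without young sham sample 3. The other 5 genes differed by 0.00 (*Lpl*) to 0.30 (*Trem2*, adjusted *P* = 0.322).

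Of the 20 further disease-associated genes 0 passed edgeR's test, with 7 at an unadjusted *P* under 0.05, 2 passing with DESeq2 and 0 with limma, and the 4 with the smallest *P* were *Clec7a* (log2 2.11, adjusted *P* = 0.164), *Lyz2* (1.25), *Ccl6* (0.76), and *Cd68* (0.35). *Clec7a*, which encodes the receptor dectin-1, was at 0.608 to 1.06 CPM in young and 2.26 to 5.24 CPM in aged sham, without overlap. Of the 9 TREM2 partners 0 passed by edgeR, DESeq2, or limma, and 0 had an unadjusted *P* under 0.05, with a median of 0.01. The homeostatic list had a median of 0.06, with 0 passing by any of the 3 tools and 3 at an unadjusted *P* under 0.05. The neutrophil list had a median of 2.98 over its 7 tested genes, which rests on low levels. The 8 listed genes summed to 0.940 to 1.97 CPM in young sham and to 2.85, 4.38, and 11.2 CPM in the aged sham samples. None of the 7 tested genes passed with edgeR or limma, 5 passed with DESeq2, and 6 had an unadjusted *P* under 0.05. The part of neutrophils in the aged sham values of the members was not tested.

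Aged ICH was then compared with young ICH. By edgeR 0 of the 10 genes passed (0.0372% of all genes passed upward), and 2 had an unadjusted *P* under 0.05. DESeq2 passed 1, against 189 of 39887 genes, and limma 0, against 17 of 21495. By the DEG criteria 1 gene, *Cst7*, was higher, against 2.21% of all genes. All aged samples exceeded all young samples for *Cst7* and *Trem2*, where 6.9% of all genes did. *Cst7* was at 3.83 ± 1.21 CPM in aged and 1.87 ± 0.191 CPM in young ICH (SD, *n* = 3; 2.04-fold, log2 1.03, SE 0.22, adjusted *P* = 0.150), and it was the gene that passed with DESeq2 (adjusted *P* = 0.0160). Without the 3 libraries rich in choroid plexus RNA, which leaves a single aged ICH library, its difference was 0.64. *Trem2* was at 16.2 ± 1.77 CPM and 13.3 ± 1.40 CPM (log2 0.29, SE 0.11, adjusted *P* = 0.456). The other members differed by -0.31 (*Lpl*) to 0.62 (*Lgals3*), within the overlap of the samples. The summed neutrophil markers were 19.5 to 30.2 CPM in aged and 7.11 to 17.3 CPM in young ICH, with a median of 1.36 over 7 tested genes. The medians were 0.22 for monocyte, -0.37 for border macrophage, and -1.61 for NK and T cell markers. In these 4 lists 0 genes passed by edgeR, DESeq2, or limma. The part of these cells in the values of the members was not tested.

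**Figure D5:**
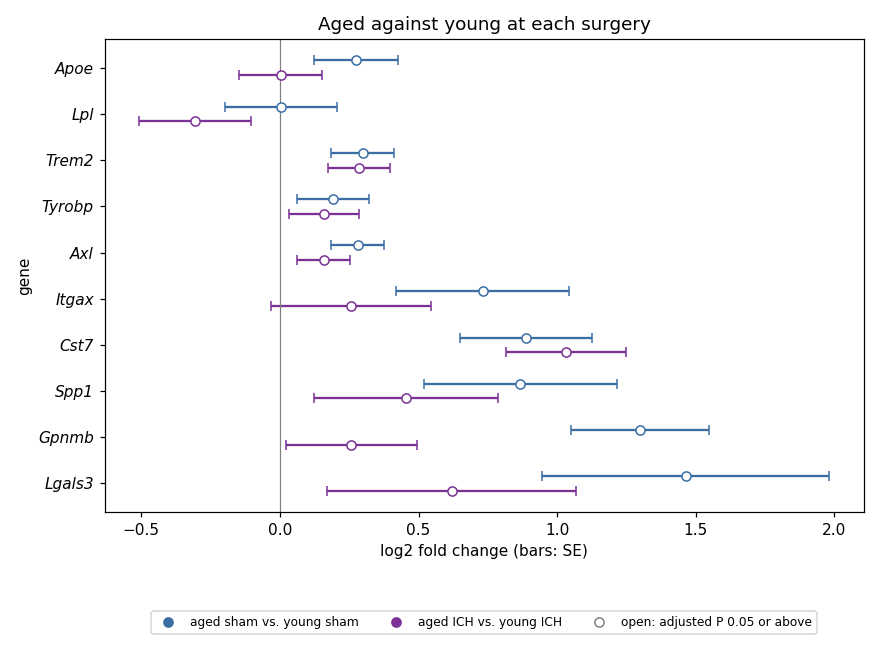
Log2 fold change of aged against young (x axis) for each gene (y axis) in sham and in ICH mice; bars are the SE, and every point is open because no adjusted *P* was under 0.05. *Gpnmb*, *Lgals3*, *Cst7*, and *Spp1* lie farthest to the right in sham, and *Cst7* at 1.03 in ICH.

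To see whether the ICH response itself depended on age, the young response was subtracted from the aged response in the same fit. By edgeR 0 members passed, and so did 0% of all genes, with 1 member at an unadjusted *P* under 0.05 and 0 passing by DESeq2 or limma. That gene was *Gpnmb*, whose response was smaller in aged mice by 1.04 on the log2 scale (-1.04, SE 0.34, unadjusted *P* = 0.0104), and it alone met the DEG criteria downward, as did 1.08% of all genes. The aged sham samples that enter this value held *Gpnmb* at 10.4, 5.56, and 10.6 CPM, against 2.96 to 4.16 CPM in young sham. The part of this baseline in the smaller response was not tested. The responses of *Trem2* (-0.01, SE 0.16), *Tyrobp* (-0.03, SE 0.18), *Axl* (-0.12, SE 0.13), and *Cst7* (0.14, SE 0.33) differed between the ages by less than their SE. For *Lgals3* (-0.84, SE 0.68), *Itgax* (-0.48, SE 0.43), and *Spp1* (-0.41, SE 0.48) the SE was too large to place the difference on either side of 0. The median over the 10 genes was -0.29, and over all genes -0.01.

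Read across the 4 groups, the mean CPM of 7 members (*Cst7*, *Spp1*, *Gpnmb*, *Axl*, *Tyrobp*, *Itgax*, and *Lgals3*) stood in the order young sham, aged sham, young ICH, aged ICH. The order was noted after the values were seen, and 2895 genes, 13.5% of those tested, shared it. For these members the steps from young sham to aged sham and from young ICH to aged ICH did not pass the test. The step from aged sham to young ICH was not tested. There the samples overlapped for *Gpnmb* (5.56 to 10.6 against 8.15 to 10.5 CPM) and *Itgax* (1.92 to 2.76 against 2.40 to 4.13 CPM).

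Levels of different genes were compared by FPKM, which corrects for length. *Apoe* was the highest of the 10 in every group, with means from 361 ± 45.2 FPKM in young sham to 450 ± 89.1 FPKM in aged sham (SD, *n* = 3). *Spp1* ranked below *Tyrobp* and *Axl* in young sham, overlapping *Axl*, at 8.69 ± 2.54 FPKM and next to *Apoe* in young ICH at 45.9 ± 14.2 FPKM and in aged ICH at 63.8 ± 24.6 FPKM, apart from its neighbour *Tyrobp* in both. In aged sham *Spp1* (16.4 ± 6.91 FPKM) and *Tyrobp* (14.8 ± 1.11 FPKM) overlapped. *Tyrobp* stood at 24.1 ± 2.0 FPKM in young ICH and 27.3 ± 3.80 FPKM in aged ICH, while *Trem2* stayed between 2.35 ± 0.193 FPKM in young sham and 3.39 ± 0.369 FPKM in aged ICH. *Lgals3* moved from 0.966 ± 0.311 FPKM in young sham, where it overlapped *Cst7*, to 8.84 ± 2.65 FPKM in young ICH and 13.8 ± 1.82 FPKM in aged ICH. *Itgax* was the lowest of the 10 in every group, at 0.270 ± 0.122 FPKM in young sham and 0.869 ± 0.148 FPKM in aged ICH.

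For each member, the 3 tested genes with the most similar pattern were found by Pearson's *r* of log2 CPM over the 12 samples, which share the split between sham and ICH. *Lgals3* was most like *Pdlim4* (0.992), *Lilrb4a* (0.988), and *Cd44* (0.987). *Spp1* was most like *Renbp*, *Anxa3*, and *S100a13* (0.981 to 0.983), and *Tyrobp* like *Shc1*, *Gnai2*, and *S100a13* (0.981 to 0.982), so that *S100a13* appeared for both. *Axl* was most like *Tor1aip1* (0.983), *Cavin1* (0.980), and *Tbca* (0.966), *Gpnmb* like *Mmp11* (0.945), *Cast* (0.940), and *Mir155hg* (0.938), *Cst7* like *Ngdn* (0.958), *mt-Rnr1* (0.954), and *Ppp4r1* (0.953), and *Itgax* like *Rps25* (0.959), *Rps24* (0.956), and *Scimp* (0.952). The members that did not pass after ICH had other neighbours, *Crlf2* (0.955), *Klc3* (0.917), and *Zscan30* (0.896) for *Trem2*, *Nostrin* (0.896), *Sox1* (0.891), and *Lhfpl3* (0.890) for *Apoe*, and *Afg3l1* (0.965), *Txndc5* (0.920), and *Twsg1* (0.916) for *Lpl*.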

How the data were processed

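Libraries of perihematomal tissue, each a pool of mice, were sequenced in 4 groups of 3 samples, which were grouped by the labels. The authors aligned paired-end reads to GRCm38.p6 with HISAT2 and counted them per gene with featureCounts, and the raw read counts were deposited together with FPKM values that the authors derived from them. The deposited table also holds annotation columns, of which the symbol and gene ID were used here. The sources used here do not give the strand setting. p-values measure the spread between pools.

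Counts of all 12 samples were fitted together in edgeR 4.0.16 (R 4.3.3) with TMM factors (0.954 to 1.04), a filterByExpr minimum count of 10, and the quasi-likelihood test, adjusted by Benjamini-Hochberg over 21495 genes. The SE is the log2 fold change divided by the root of the F statistic. CPM uses the TMM library sizes. The fit was checked on simulated counts. Alternatives were RLE and upper quartile factors, no filter, a mean of at least 1 CPM, DESeq2 1.42.0, limma 3.58.1 on log2(FPKM + 1), the compared groups alone, a replicate block, and leaving out each sample. Leaving out the 3 libraries with over 1000 CPM of choroid plexus markers was chosen after seeing the data. Figures were drawn with matplotlib 3.10.9.

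The members and lists were chosen with earlier results of these data known. All members are named. Of each other list, up to 4 genes with the smallest unadjusted P in young ICH (and in aged sham) are named, and the rest where a count of few genes, a pathway role, or the fold of Ank, Fcrls, and the homeostatic genes called for it, after their values were seen. Gene positions are from GENCODE vM21 (GRCm38), and promoter windows from RefSeq (GRCm38.p6).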

Additional observations from a re-analysis of the deposited data

How the results depend on the processing

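After ICH in young mice 7 members passed with every setting that kept all libraries, and 6 to 7 with a single sample left out. In aged mice 5 passed, 6 with DESeq2, limma, or the aged groups alone, 4 with a replicate block (*Axl* 0.33, adjusted *P* = 0.0503), and 3 to 5 with a single sample left out. No count is given without the choroid plexus libraries, where a single aged ICH library remained. The replicate numbers do not pair the samples, since the deviations of same-numbered samples correlated at -0.454 to 0.235, and the block changed no other call of a member. Between the sham groups 0 members passed, 1 with no filter, 1 with DESeq2, and 0 to 2 with a single sample left out, while the members meeting the DEG criteria went from 5 to 2 with limma and to 3 to 5 with a single sample left out. Between aged and young ICH 0 members passed and 1 did with DESeq2, and 1 met the DEG criteria, 2 with the ICH groups alone, and 1 to 2 with a sample left out. For the difference of the responses 1 member met the DEG criteria, 0 with limma, and 1 to 2 with a sample left out.

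Over all genes, 22 passed between the sham groups, against 77 with no filter, 266 with DESeq2, 10 with the sham groups alone, 12 with the block, and 6 to 28 with a sample left out. Those meeting the DEG criteria numbered 799, against 1269 with no filter, 427 at a mean of at least 1 CPM, and 147 with limma. In young ICH 4110 passed, against 2442 with the young groups alone, 2199 without the choroid plexus libraries, and 1858 to 4225 with a sample left out, and 2612 met the DEG criteria, 932 with limma. In aged ICH 2828 passed, against 431 without the choroid plexus libraries and 679 to 3327 with a sample left out, and 2164 met the DEG criteria, 849 with limma. Between aged and young ICH 12 passed, against 61 with no filter, 189 with DESeq2, 3 with the ICH groups alone, and 4 to 19 with a sample left out, and 756 met the DEG criteria, 1280 with no filter, 389 at a mean of at least 1 CPM, and 183 with limma. For the difference of the responses 0 passed and 1 did with DESeq2, and 336 met the DEG criteria, 787 with no filter, 163 at a mean of at least 1 CPM, 80 with limma, and 314 to 609 with a sample left out. The cause of these shifts was not tested, beyond the fewer samples or other genes tested that the settings bring by construction.

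Values near 0 changed sign. *Lpl* between the sham groups was -0.0043 with RLE factors, -0.0046 with DESeq2, -0.00094 without the choroid plexus libraries, and -0.13 to 0.20 with a sample left out, and in aged ICH -0.042 to 0.14 with a sample left out. *Apoe* between aged and young ICH was -0.0017 with RLE factors, -0.0045 with DESeq2, -0.0089 with the block, -0.19 without the choroid plexus libraries, and -0.12 to 0.10 with a sample left out. In the difference of the responses *Cst7* was -0.24 without those libraries and -0.15 to 0.29 with a sample left out, *Trem2* -0.11 to 0.058, and *Tyrobp* -0.15 to 0.075. Depth limits *Cst7*, with 22 to 28 reads per young sham library, and *Itgax*, with 26 to 61.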
